A study of Homo sapiens with 14 samples.

Results

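The comparison was between K562 cells whose guide RNA, sgHBG, directs catalytically inactive Cas9 (dCas9) to the promoters of the fetal γ-globin genes, and K562 cells with the non-targeting guide sgGal4. It rests on 6 of the 14 RNA-seq libraries of the series, 3 per group, chosen by their labels and not by any measured value. The comparison itself was chosen with earlier results of these data known. K562 is an established human chronic myeloid leukaemia line with erythroid and megakaryocytic features that carries the BCR-ABL fusion. The cells of both groups also carried the tagged dCas9 (FB-dCas9, for FLAG and biotin) and BirA, the ligase that attaches biotin to that tag, so test and control share these. The series also has 2 WT libraries, whose labels name no guide, dCas9 or BirA, used here as a further reference. Libraries with guides against other elements of the β-globin locus entered the filter of genes, the scaling and the estimate of spread. The genes tested, and the list totals below, therefore include some genes with 0 reads in all 6 compared libraries. The labels used here do not say whether a cell line was a single clone or a pool, or whether libraries of a group came from separate cultures. The p-values therefore measure the spread between these libraries, which may be technical, and differences between cell lines and effects of the guide cannot be told apart.

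The β-globin cluster on chromosome 11 holds, in order of use in development, the embryonic gene HBE1, the fetal genes HBG2 and HBG1, and the adult genes HBD and HBB, with the pseudogene HBBP1 between the fetal and adult genes. A distal enhancer array, the locus control region, contacts these promoters in erythroid cells, and K562 cells use mainly the embryonic and fetal genes. dCas9 binds DNA without cutting it, and a bound complex near a transcription start can hinder RNA polymerase, while the biotin tag allows the bound chromatin to be captured on streptavidin.

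The 6 libraries held 9498578 to 11335831 reads in genes. Here levels are CPM, read counts relative to library size, scaled by the TMM method for composition, and 3 reads correspond to 0.265 to 0.316 CPM before that scaling. A gene was called at a Benjamini-Hochberg adjusted p under 0.05 in edgeR's quasi-likelihood test over 14406 genes, and every adjusted p below is from that test unless another is named. Of these genes, 3556 (24.7%) were called, 1738 higher (12.1%) and 1818 lower (12.6%) in sgHBG, and 1321 of the calls were at least 2-fold. Every sgHBG library lay above every sgGal4 library in 3560 genes (24.7%) and below in 3306 (22.9%). These shares are the background wherever groups are said below not to overlap. The first sgGal4 library stood apart from the other two. Its TMM factor was 0.743 against 0.959 and 0.962, and per gene its counts differed from theirs with a chi-square per degree of freedom of 84.1 and 87.6, where all other pairs within the 2 groups gave 1.24 to 1.46. It was high for short genes and low for long genes, by a median of 0.49 log2 units above its group mean in the shortest of 5 equal bins of genes by length and 0.43 below in the longest (a deviation of -0.43). The median log2 difference between sgHBG and sgGal4 accordingly ran from -0.30 in the shortest bin to 0.19 in the longest, and from -0.01 to 0.03 without that library. Leaving it out gave 4068 calls among 14400 genes (28.2%), 2037 higher and 2031 lower (14.1% each), of which 3068 were called in both fits and 0 had opposite directions. Leaving out an sgHBG library instead gave 2211, 2072 and 2064 calls for libraries 1, 2 and 3. Each result below is given with and without the first sgGal4 library where it matters.

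**Figure D1:**
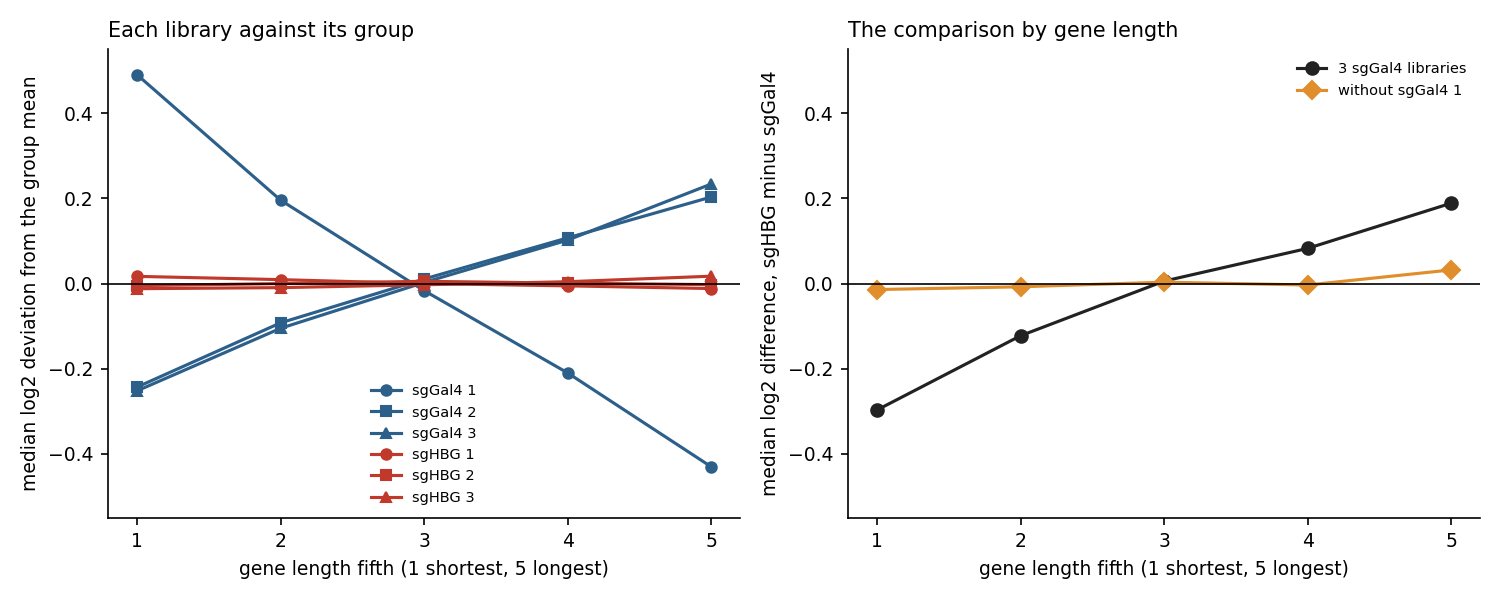
The left panel plots, for each sgGal4 and sgHBG library, the median log2 deviation from its group mean in 5 equal bins of genes ordered by length, and the right panel the median log2 difference between sgHBG and sgGal4 in the same bins, with all libraries (circles) and without the first sgGal4 library (diamonds). The first sgGal4 library falls from 0.49 to -0.43 across the bins while the sgHBG libraries stay near 0, and the slope of the comparison is not seen without it.

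The targeted genes came first. HBG2, one of the fetal γ-globin genes, stood at 90.3, 82.2 and 80.6 CPM in the sgHBG libraries, at 166, 58.1 and 60.5 CPM in the sgGal4 libraries and at 122 and 129 CPM in WT. HBG1, its near-identical neighbour, stood at 59.8, 63.3 and 60.3 CPM in sgHBG, 130.1, 47.1 and 46.5 CPM in sgGal4, and 58.5 and 62 CPM in WT. In both genes the sgHBG values lay between the first sgGal4 library, which was high, and the other two, which were low, so that the groups overlapped. The fitted log2 differences were -0.16 ± 0.33 (SE, adjusted p = 0.744) for HBG2 and -0.28 ± 0.33 (adjusted p = 0.562) for HBG1, and neither was called. Without the first sgGal4 library the direction turned: HBG2 was 0.51 log2 units higher in sgHBG (adjusted p = 0.0442) and HBG1 0.39 higher without a call (adjusted p = 0.127). The first sgGal4 library exceeded the mean of the other two by 2.80 times for HBG2 and 2.78 times for HBG1, and by 2.83 times for the ribosomal protein gene RPL13, a short gene outside the cluster. Reads that match both fetal genes could have been assigned to either by the authors' counting, and their sum was 150.1, 145.5 and 140.9 CPM in sgHBG against 296.2, 105.2 and 107 CPM in sgGal4.

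The embryonic gene HBE1 had the highest RPKM (the authors' values per transcript length and library depth) of the cluster in all 8 sgHBG, sgGal4 and WT libraries, and followed the same order. It measured 289, 266 and 265 CPM in sgHBG, 544, 240.4 and 239 CPM in sgGal4, and 342 and 346 CPM in WT. Its log2 difference was -0.32 ± 0.28 (adjusted p = 0.414) and 0.19 without the first sgGal4 library (adjusted p = 0.41), with no call in either fit. HBB, the adult β-globin gene, had 0 reads in all 6 libraries, which allows up to the floor of 3 reads given above.

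The 2 calls in the cluster, of 5 members tested, were for low-abundance transcripts (12.1% of all genes were called higher). HBBP1, the pseudogene next to HBG1, measured 6.5, 8.03 and 6.19 CPM in sgHBG against 1.28, 1.26 and 1.19 CPM in sgGal4 and 1.73 and 2.1 CPM in WT. All sgHBG libraries lay above all others, and the first sgGal4 library did not stand apart for this gene. The difference was 5.53-fold (log2 2.47 ± 0.27, adjusted p = 5.7e-05), and the call held with each of the 6 libraries left out. HBD, the minor adult δ-globin gene, measured 6.7, 5.71 and 7.06 CPM in sgHBG, 5.67, 3.77 and 3.21 CPM in sgGal4, and 0.962 and 1.18 CPM in WT. The second sgHBG library exceeded the first sgGal4 library only slightly, so the groups did not overlap but nearly touched. Its log2 difference of 0.64 ± 0.22 (adjusted p = 0.0477) was lost without any one of the sgHBG libraries or sgGal4 library 2 or 3 (adjusted p up to 0.152), and was 0.89 without the first (adjusted p = 0.00565). Against WT, a comparison that shares the sgHBG libraries, HBBP1 was 1.84 ± 0.29 and HBD 2.58 ± 0.29 log2 units higher (adjusted p = 0.000359 and 2.51e-05).

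The promoter of HBD is shown because it is the called protein-coding globin gene for which RefSeq (GRCh38.p14) gave the sequence, at chr11:5234434-5234733 on the minus strand, from 250 bases before to 50 after the start site. Capitals mark a CCAAT box and a GATA motif (AGATAA, here as its reverse complement TTATCT), searched on both strands. Of the promoters of genes tested, 43% held CCAAT and 8.62% AGATAA.
HBD promoter: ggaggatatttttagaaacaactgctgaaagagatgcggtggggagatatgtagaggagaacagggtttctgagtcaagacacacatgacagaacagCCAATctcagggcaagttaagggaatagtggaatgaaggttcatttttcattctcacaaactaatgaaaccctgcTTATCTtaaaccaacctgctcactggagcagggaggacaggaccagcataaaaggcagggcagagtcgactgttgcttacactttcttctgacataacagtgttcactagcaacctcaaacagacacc

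Shares within the cluster remove a scaling common to its genes. The excess of the first sgGal4 library over the mean of libraries 2 and 3 was not common to them. It was 2.27 times for HBE1, 2.78 for HBG1, 2.80 for HBG2, 1.625 for HBD and 1.04 for HBBP1, so shares do not correct for it. HBG1 and HBG2 together took 33.18%, 34.22% and 33.63% of the cluster's reads in sgHBG, 34.96%, 30% and 30.53% in sgGal4, and 34.35% and 35.31% in WT. The share in the first sgGal4 library was the highest of the 6 and the other two were the lowest (exact permutation test of 3 against 3, two-sided p = 0.4, where 0.1 is the smallest possible). HBE1 took 63.9%, 62.55% and 63.2% in sgHBG and 64.22%, 68.56% and 68.21% in sgGal4 (exact p = 0.1), so every sgHBG library was below every sgGal4 library. HBBP1 took 1.438%, 1.888% and 1.478% in sgHBG against 0.1507%, 0.3588% and 0.3404% in sgGal4, and HBD 1.482%, 1.343% and 1.686% against 0.6698%, 1.076% and 0.9165% (exact p = 0.1 each). For both transcripts all sgHBG shares lay above all sgGal4 shares, in which the first sgGal4 library was the lowest. The 5 shares tested this way, with that of HBG2 within HBG1 and HBG2 (exact p = 0.2), could not fall below 0.1 by design and are given without adjustment.

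**Figure D2:**
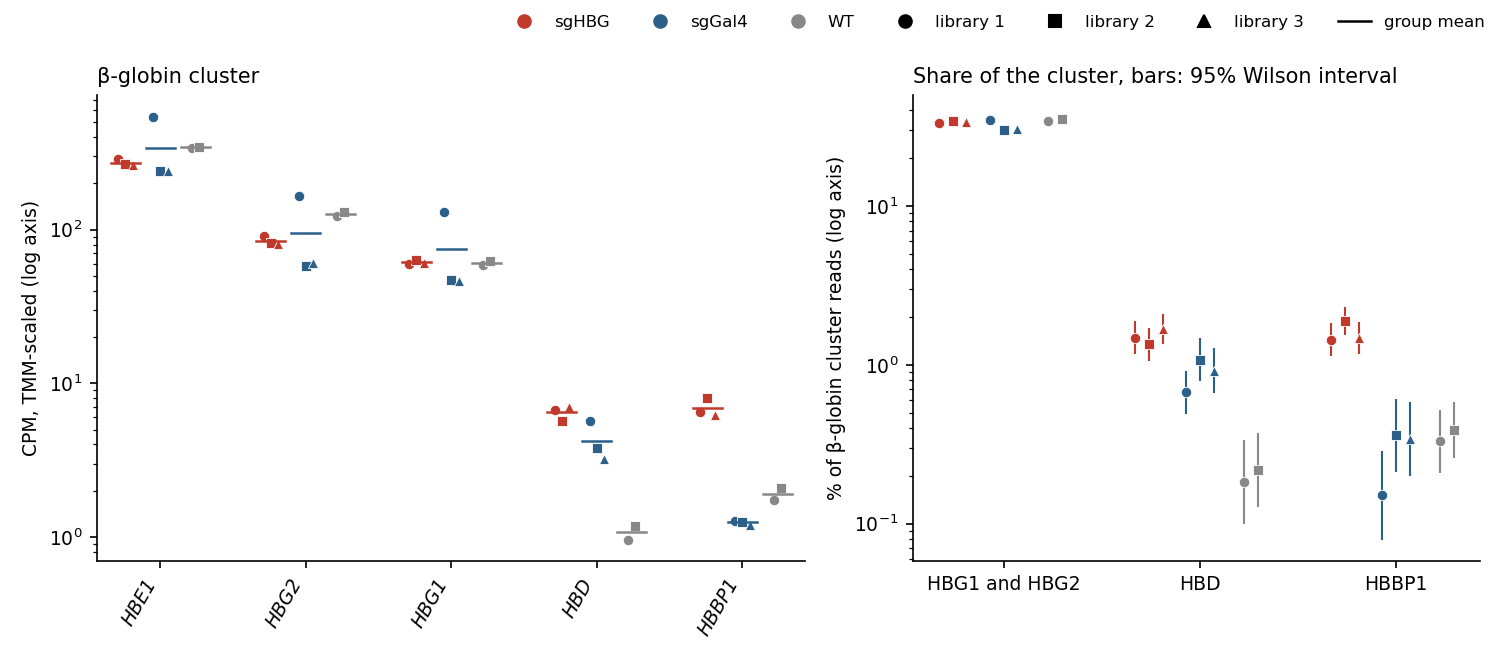
The left panel plots CPM (log axis) of the 5 tested transcripts of the β-globin cluster in each sgHBG, sgGal4 and WT library with the group mean as a bar, and the right panel the share of the cluster's reads (%, log axis) with 95% Wilson intervals, which cover counting error only. The first sgGal4 library is high for HBE1, HBG2 and HBG1, and the sgHBG libraries are above sgGal4 for HBBP1 in both panels.

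Around the cluster on the short arm of chromosome 11, 28 neighbouring genes were tested, and 6 rose and 1 fell; 7 of 28 is close to the 24.7% called over all genes. DCHS1, a large cadherin of planar cell polarity, measured 3.5, 5 and 3.58 CPM in sgHBG and 0.993, 0.774 and 1.74 CPM in sgGal4 (3.37-fold, adjusted p = 0.00236). APBB1, an adaptor that binds the amyloid precursor protein, measured 4.8, 4.64 and 6.02 CPM against 1.56, 1.94 and 1.38 CPM (3.15-fold, adjusted p = 0.00173). In both genes the sgHBG libraries were all above the sgGal4 libraries. The ubiquitin ligases TRIM21 and TRIM68 were higher by 0.71 ± 0.16 and 0.57 ± 0.13 log2 units (adjusted p = 0.00632 and 0.00808). The calls for RHOG, TPP1 and RRM1 were each lost without one or another library (adjusted p up to 0.125). Without the first sgGal4 library the list had 7 higher and 3 lower, and without any 1 sgHBG library 0 were lower. The olfactory receptor genes OR51B4 and OR51B5, which K562 cells transcribe upstream of the cluster, were not called. OR51B5 measured 90.3, 85.5 and 88.8 CPM in sgHBG and 101, 118 and 132 CPM in sgGal4, below it in every library (log2 -0.41 ± 0.15, adjusted p = 0.0567, and -0.50 with adjusted p = 0.0138 without the first sgGal4 library). OR51B4 measured 35.8, 35.1 and 38.1 CPM against 15.3, 30.4 and 31.6 CPM (log2 0.49 ± 0.23, adjusted p = 0.145).

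Of 11 tested members of the α-globin cluster and its surroundings, 0 rose and 2 fell (18.2% called, against 24.7% over all genes). Without any 1 sgHBG library 0 fell, without the second sgGal4 library 4 fell, and without the first 1 rose and 1 fell. HBQ1, the θ-globin gene, measured 6.7, 5 and 4.45 CPM in sgHBG and 24.3, 7.74 and 6.97 CPM in sgGal4 (log2 -1.24 ± 0.42, adjusted p = 0.0475). The first sgGal4 library was the high one, and without it the difference was -0.46 (adjusted p = 0.213). HBZ, the embryonic ζ-globin gene, measured 7.71, 9.63 and 9.16 CPM against 7.94, 5.71 and 6.24 CPM, which overlapped (adjusted p = 0.179).

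Among 35 tested regulators of globin transcription, 3 rose and 3 fell, shares below the 12.1% and 12.6% of all genes. The 3 that rose held their calls with each library left out, while without any 1 sgHBG library only 1 fell. NR2F2, a nuclear receptor known as a repressor of embryonic and fetal globin genes, measured 29, 30.2 and 30.5 CPM in sgHBG and 13.8, 15.7 and 17 CPM in sgGal4 (1.93-fold, adjusted p = 4.56e-05). TAL1, a core erythroid and megakaryocytic transcription factor, measured 89.9, 86.2 and 92.7 CPM against 42.6, 50.2 and 53.3 CPM (1.84-fold, adjusted p = 0.000987). RUNX1, a factor of blood stem cells and megakaryocytes, measured 102, 103 and 107 CPM against 39.7, 68.2 and 62.8 CPM (1.82-fold, adjusted p = 0.00417). For all 3 the groups did not overlap, and against WT NR2F2 and TAL1 were lower in sgHBG, by 0.61 and 0.69 log2 units (differences of -0.61 and -0.69), while RUNX1 was 0.61 higher (adjusted p = 0.000772, 0.00415 and 0.0325). HMGA2, a fetal chromatin protein, fell 8.99-fold, from 8.09, 12.7 and 11.9 CPM in sgGal4 to 1.9, 0.981 and 0.785 CPM in sgHBG (adjusted p = 0.00494), and WT held 0 and 0.0911 CPM. The calls for the erythroid factor KLF1 and the histone deacetylase HDAC2 were lost without the first sgGal4 library (adjusted p = 0.125 and 0.0663). GATA1, the master erythroid factor, measured 154, 161 and 159 CPM against 260.4, 152 and 148 CPM and was not called (adjusted p = 0.439).

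Of 24 tested genes of heme synthesis and iron handling 1 rose and 2 fell (12.5% called, below the 24.7% over all genes), 2 rose without the first sgGal4 library and 0 without sgHBG library 1 or 3, and 5 fell without sgGal4 library 2 or 3 and 1 without any 1 sgHBG library. BLVRA, the enzyme that reduces biliverdin, measured 49.1, 46 and 44.7 CPM in sgHBG and 216, 82 and 91.7 CPM in sgGal4, with the first sgGal4 library high but all 3 above sgHBG (2.77-fold lower in sgHBG, adjusted p = 0.0038, and log2 -0.90 without that library, adjusted p = 0.000508). The call of FECH, which inserts iron into heme, rested on 0.39 ± 0.10 log2 units (adjusted p = 0.0136) and was lost in 1 or more fits without a library (adjusted p up to 0.0508).

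Red cell membrane genes encode the surface sialoglycoproteins, blood group antigens and the spectrin skeleton. Their list here also holds other erythroid genes, such as the ubiquitin ligase gene TRIM10. The list had 8 higher and 3 lower of 30 tested (36.7% called, against 24.7% over all genes). Its median log2 difference was 0.21 against -0.001 over all genes. GYPE, of a family of close copies among which reads may be shared, was 2.29-fold higher in sgHBG than in sgGal4 (adjusted p = 0.000298). TRIM10, a ubiquitin ligase of terminal erythroid cells, had 176 reads in sgHBG and 3 in sgGal4, a depth-scaled ratio of 50.8 (95% exact interval 17.1 to 249, counting error only; adjusted p = 1.62e-06). DMTN, which bundles actin in the membrane skeleton, measured 22.3, 23.6 and 23.4 CPM against 13.3, 13.7 and 13.5 CPM (1.71-fold, adjusted p = 0.0011), and the groups did not overlap. The adducin ADD2, the water channel AQP1 and the Lutheran glycoprotein BCAM fell 2.53-, 2.25- and 2.78-fold (adjusted p = 1.74e-05, 0.000276 and 2.31e-05), with AQP1 at 29, 25.8 and 27.4 CPM against 59.7, 61.3 and 63.9 CPM. Without the first sgGal4 library the list held 10 higher and 5 lower. In WT, AQP1 stood at 4.23 and 2.19 CPM, below sgHBG, and against WT the list held 5 higher and 17 lower (over all genes, 33.6% were called against WT, 17.7% higher and 15.9% lower). Defining markers of erythroid cells were present: the 15 summed to 2205 to 2219 CPM in sgHBG and 1906 to 2178 CPM in sgGal4. In bulk RNA, fewer cells of a type and less RNA per cell cannot be told apart.

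The TRIM10 promoter is shown as that of the member of the red cell membrane list with the largest fold (RefSeq, GRCh38.p14, chr6:30161162-30161461, minus strand). Its GATA motif, read as TTATCT, is in capitals. AGATAA on either strand was found in 11 of 24 promoters of tested genes of that list (45.8%). It was found in 8.62% of the promoters of all genes tested and 12.4% of all promoters of this length. A match is a run of letters, not a measured binding site.
TRIM10 promoter: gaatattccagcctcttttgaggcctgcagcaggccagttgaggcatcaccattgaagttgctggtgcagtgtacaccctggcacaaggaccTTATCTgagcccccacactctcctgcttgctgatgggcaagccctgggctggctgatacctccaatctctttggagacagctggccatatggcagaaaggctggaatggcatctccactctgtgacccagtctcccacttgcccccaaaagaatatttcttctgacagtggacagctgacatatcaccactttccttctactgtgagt

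Megakaryocyte and platelet genes held 12 higher and 2 lower of 37 tested (37.8% called, against 24.7% over all genes). Their median log2 difference was 0.39 (0.31 without the first sgGal4 library). The fibrinogen receptor was among them. ITGA2B, its α chain, measured 229, 231 and 232 CPM in sgHBG, 63.4, 48.4 and 48.2 CPM in sgGal4, and 38.5 and 38.4 CPM in WT. ITGB3, its β chain, measured 11.7, 11.5 and 12 CPM, 1.84, 4.16 and 3.85 CPM, and 5.29 and 3.83 CPM. Both chains were higher in every sgHBG library than in any sgGal4 or WT library (4.33-fold and 3.48-fold against sgGal4, adjusted p = 3.75e-06 and 0.000351). GP6, the platelet collagen receptor, was 2.78-fold higher (adjusted p = 0.00172), and FERMT3, the kindlin that activates integrins in blood cells, 1.80-fold, at 271, 273 and 268 CPM against 156, 147 and 149 CPM (adjusted p = 0.000154).

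Of 10 granule content genes of platelets 3 rose and 1 fell. THBS1, thrombospondin, measured 74.3, 70.6 and 75.2 CPM in sgHBG, 10.4, 21.6 and 22.9 CPM in sgGal4, and 0.0962 and 0.0911 CPM in WT (3.96-fold against sgGal4, adjusted p = 5.74e-05). SELP, P-selectin, measured 5, 5.26 and 5.84 CPM against 0, 0.194 and 0.642 CPM (16.7-fold, adjusted p = 0.000389). In both, the first sgGal4 library was the lowest, and the groups did not overlap. TUBB1, the β-tubulin of the platelet ring, was 2.40-fold higher (adjusted p = 0.00443). FLI1, an ETS factor of megakaryocytes, had 7.91, 6.87 and 6.89 CPM against 0.284, 0.29 and 0.55 CPM and none in WT. That difference passed the test (18.1-fold, adjusted p = 0.025) but not without the second sgGal4 library or any one sgHBG library (adjusted p up to 0.0624). The calls of MEIS1, F2RL3 and MMRN1 were likewise lost without 1 or more libraries (adjusted p up to 0.136, 0.137 and 0.0518). The growth factor gene PDGFA fell 2.85-fold, from 43, 23.6 and 23.1 CPM to 10.9, 10.4 and 9.94 CPM (adjusted p = 0.000391), and the myosin light chain MYL9, named after its values were seen as the other member that fell, 2.65-fold (adjusted p = 0.015). Without sgHBG library 2 or 3 only 1 of them fell. Of 10 defining megakaryocyte markers 5 were tested, their sum was 248.8 to 253.7 CPM in sgHBG and 56.88 to 67.8 CPM in sgGal4, GP1BB had 0 reads in all 6 libraries, and GP9 and PF4 had a few. Against WT, 20 of the 37 genes were higher and 0 lower (over all genes, 17.7% higher and 15.9% lower).

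The ITGA2B promoter is shown because this gene had the lowest p of the list (RefSeq, GRCh38.p14, chr17:44389600-44389899, minus strand). Capitals mark an ETS motif (CAGGAAG, here as CTTCCTG). That motif was found in 13 of 27 megakaryocyte promoters (48.1%) against 17% of the promoters of all genes tested, and AGATAA in 2 of the 27 (7.41%).
ITGA2B promoter: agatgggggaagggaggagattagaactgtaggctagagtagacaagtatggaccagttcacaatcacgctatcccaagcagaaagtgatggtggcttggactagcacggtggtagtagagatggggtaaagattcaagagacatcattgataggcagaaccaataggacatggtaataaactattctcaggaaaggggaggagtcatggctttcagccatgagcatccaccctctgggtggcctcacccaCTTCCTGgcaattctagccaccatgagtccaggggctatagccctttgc

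Of 13 T and NK cell genes tested 5 rose and 1 fell (46.2% called, against 24.7% over all genes). Of 23 myeloid genes 5 rose and 0 fell (21.7%), and of 18 B cell genes 3 rose and 1 fell (22.2%), shares not above that of all genes. The number that fell was 0 in the T and NK cell list with any 1 library left out, and 0 in the B cell list without the second sgGal4 library or sgHBG library 2 or 3. IL2RB, the β chain of the interleukin-2 receptor, measured 20.7, 21 and 20.3 CPM in sgHBG, 0.851, 1.35 and 1.47 CPM in sgGal4, and 9.14 and 8.47 CPM in WT (16.3-fold against sgGal4, adjusted p = 4.06e-07). PRF1, perforin, measured 11, 14.4 and 11.2 CPM against 2.84, 2.42 and 2.94 CPM (4.46-fold, adjusted p = 2.78e-05). CD3D, a chain of the T cell receptor complex, measured 8.21, 10.9 and 8.28 CPM against 3.69, 2.03 and 0.642 CPM (4.57-fold, adjusted p = 0.0014). In each of these the lowest sgHBG library was above the highest sgGal4 library. Among the 8 defining T and NK cell markers, CD8A had 0 reads in all 6 libraries and CD2, CD3G and IL7R a few, and the summed level was 12.73 to 15.7 CPM in sgHBG and 1.835 to 6.241 CPM in sgGal4.

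Of the myeloid genes, ITGB2, the shared β chain of leukocyte integrins, measured 37.1, 37.6 and 39.5 CPM in sgHBG and 2.69, 3 and 4.22 CPM in sgGal4 (11.3-fold, adjusted p = 0.00383). CSF2RB, the shared receptor chain for interleukin-3 and GM-CSF, measured 36.6, 35.7 and 38.8 CPM against 0.851, 5.81 and 6.05 CPM (8.34-fold, adjusted p = 0.00452). The Fc receptor γ chain FCER1G measured 16.5, 17.1 and 16.3 CPM against 5.82, 2.42 and 2.02 CPM (5.05-fold, adjusted p = 0.00339). All 3 held apart in every library, with the first sgGal4 library lowest for CSF2RB and highest for FCER1G. CD33 rose by 0.47 ± 0.09 log2 units, and lactoferrin, LTF, was at 4, 4.19 and 3.23 CPM against 0.709, 0.29 and 0 CPM (adjusted p = 0.00249 and 0.000688). The sum of the defining myeloid markers went the other way, at 163.4 to 168.1 CPM in sgHBG and 240.2 to 286.5 CPM in sgGal4. S100A8 had 0 reads and MPO, ELANE, CD14, CSF1R and S100A9 a few, so nearly all of the sum came from LYZ, SPI1 and CSF3R. The sum was not tested. MS4A2, the β chain of the IgE receptor on mast cells, rose 3.67-fold from 6.81, 12.3 and 10.6 CPM to 37.8, 36 and 36.5 CPM (adjusted p = 1.74e-05), and HDC, which makes histamine, 1.49-fold (adjusted p = 0.0125). Of 12 mast cell and basophil genes 3 rose and 2 fell (41.7% called, against 24.7% over all genes), and CPA3 had 0 reads. Without sgHBG library 1 or 3 none of these fell, and without sgHBG library 2 or the second sgGal4 library 1 did. The part of other cells or cell states in these results was not tested.

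Interferon-stimulated genes are induced when the factor IRF9 and its partners bind the interferon-stimulated response element after viral RNA or interferon is sensed. They held 23 higher and 3 lower of 43 tested (60.5% called, against 24.7% over all genes). That was the list with the most members called higher, with a median log2 difference of 0.70 (0.92 without the first sgGal4 library, with 26 higher and 1 lower). With any 1 of the 6 libraries left out, 19 to 26 were higher. Of 5 cytosolic RNA sensors and their kin 4 rose and 0 fell, of 11 signalling genes 7 rose and 2 fell, and of 27 effectors 12 rose and 1 fell.

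Among the sensors, IFIH1 (MDA5), which binds long double-stranded RNA, measured 22.2, 21.7 and 21.4 CPM in sgHBG, 4.4, 6 and 6.51 CPM in sgGal4, and 2.98 and 3.1 CPM in WT (3.81-fold against sgGal4, adjusted p = 5.54e-06). DDX58 (RIG-I), which binds RNA with a free triphosphate end, measured 5.3, 4.55 and 4.62 CPM against 2.27, 1.55 and 1.28 CPM (2.89-fold, adjusted p = 0.00575). The helicase gene DDX60L measured 18.9, 20.4 and 20.2 CPM against 2.98, 4.84 and 3.49 CPM (5.20-fold, adjusted p = 3.09e-05). Every sgHBG library was above every sgGal4 library for the 3 genes. DDX60 had 81 reads in sgHBG and 1 in sgGal4, a depth-scaled ratio of 70.1 with an exact 95% interval of 12.2 to 2800.

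Of the signalling and nuclear genes, SP110, a nuclear body protein, measured 21.5, 21.1 and 20.7 CPM in sgHBG, 2.13, 1.16 and 1.28 CPM in sgGal4, and 6.64 and 7.56 CPM in WT (14.2-fold against sgGal4, adjusted p = 8.37e-07). IFI16, a nuclear DNA sensor, measured 95.6 to 102 CPM in the 3 sgHBG libraries against 23.1, 18.1 and 20.3 CPM (4.86-fold, adjusted p = 2.28e-05). PARP9, which mono-ADP-ribosylates proteins with its partner DTX3L, was 2.04-fold higher (adjusted p = 0.000688). These 3 did not overlap between the groups. IRF7, the factor that amplifies interferon production, went the other way, at 11.2, 12.1 and 11.2 CPM against 29.1, 19 and 18.6 CPM (1.92-fold lower, adjusted p = 0.00367). USP18 and IFITM2, named after their values were seen, were the other 2 that fell, and without the first sgGal4 library, or without sgHBG library 1 or 3, the list had 1 lower member.

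Of the effectors, IFIT3, which joins the complex that binds foreign RNA, measured 13.8, 16.4 and 14.3 CPM in sgHBG and 3.12, 2.52 and 1.1 CPM in sgGal4 (6.79-fold, adjusted p = 2.33e-05). IFIT2, of the same family, measured 4, 4.91 and 4.88 CPM against 0.426, 0.0968 and 0.183 CPM (20.2-fold, adjusted p = 4.57e-05). SAMD9, an antiviral restriction factor, measured 13.8, 16.2 and 14.8 CPM against 0, 1.16 and 0.917 CPM (19.4-fold, adjusted p = 3.94e-05). The sgGal4 libraries were low throughout, and the first had no SAMD9 read. Against WT, which shares only the sgHBG libraries with this comparison, 22 members were higher and 1 lower, with a median of 0.95. Over all genes 17.7% were higher and 15.9% lower against WT.

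MHC and antigen processing genes held 6 higher and 1 lower of 20 tested (35.0% called, against 24.7% over all genes). The number lower was 0 without any 1 sgHBG library or the second sgGal4 library. TAP2 and TAP1, which together pump peptides into the endoplasmic reticulum, measured 61, 58.7 and 57.1 CPM against 20.9, 29.7 and 27.4 CPM and 26.7, 26.8 and 28.3 CPM against 18.4, 14.5 and 11.7 CPM. They were 2.26- and 1.84-fold higher in sgHBG without overlap (adjusted p = 5.71e-05 and 0.00323). PSMB8, a subunit of the immunoproteasome, was 4.89-fold higher (adjusted p = 0.0102). The class II genes HLA-DPA1 and HLA-DPB1 were 5.86- and 5.45-fold higher at low level, with HLA-DPA1 at 4.8, 3.48 and 5.49 CPM against 0.567, 1.26 and 0.459 CPM (adjusted p = 0.00451 and 0.00831).

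The IFIH1 and IFIT3 promoters (RefSeq, GRCh38.p14, chr2:162318635-162318934, minus strand, and chr10:89327747-89328046, plus strand) are shown because the interferon list shared the motif most widely. Capitals mark the core of the interferon-stimulated response element, searched on both strands as TTTC, any 2 bases and TTTC again, or its reverse complement with GAAA on each side. The longer run of capitals in the IFIH1 promoter is 2 overlapping matches. On either strand the motif was found in 23 of 33 promoters of tested interferon genes (69.7%), against 4.08% of the promoters of all genes tested and 4.38% of all promoters of this length. It was found in 0 of 27 megakaryocyte and 0 of 15 cholesterol enzyme promoters.
IFIH1 promoter: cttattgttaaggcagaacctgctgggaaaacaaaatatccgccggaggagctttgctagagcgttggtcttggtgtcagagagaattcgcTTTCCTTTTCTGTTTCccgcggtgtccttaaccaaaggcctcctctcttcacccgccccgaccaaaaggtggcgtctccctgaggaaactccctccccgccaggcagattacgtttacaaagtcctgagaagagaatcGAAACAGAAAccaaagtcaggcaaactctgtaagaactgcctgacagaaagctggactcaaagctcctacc
IFIT3 promoter: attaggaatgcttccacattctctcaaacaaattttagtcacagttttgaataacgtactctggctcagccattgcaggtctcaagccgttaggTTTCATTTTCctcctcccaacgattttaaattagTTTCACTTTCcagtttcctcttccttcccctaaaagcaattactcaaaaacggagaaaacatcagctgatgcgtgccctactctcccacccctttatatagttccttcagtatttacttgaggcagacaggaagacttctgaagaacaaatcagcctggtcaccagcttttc

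**Figure D3:**
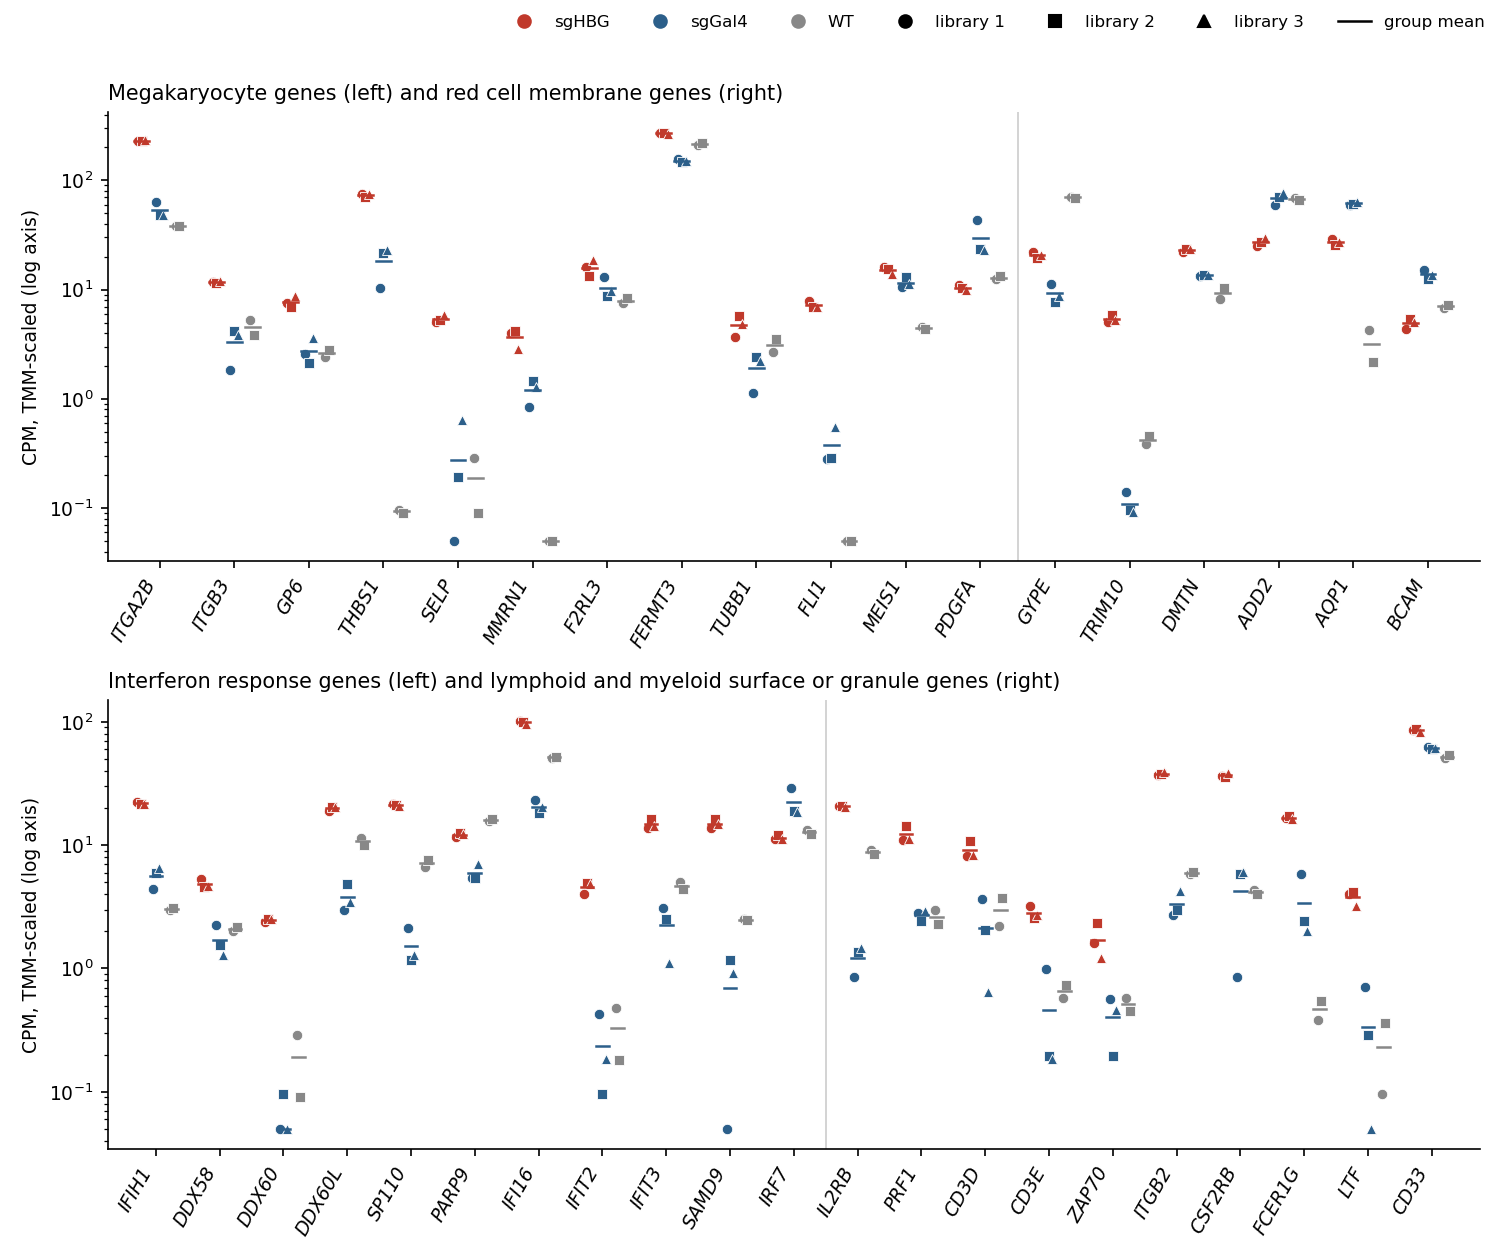
CPM (log axis) in each sgHBG, sgGal4 and WT library, with group means as bars, for megakaryocyte and red cell membrane genes (upper panel) and interferon response, lymphoid and myeloid genes (lower panel). Libraries with 0 reads are drawn at 0.05 CPM. The sgHBG points lie above the sgGal4 points for most of these genes, and below them for PDGFA, ADD2, AQP1, BCAM and IRF7.

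Cholesterol and fatty acid synthesis went the other way. Most enzymes of the mevalonate and sterol pathway, whose genes the SREBP factors switch on when sterols are scarce, were lower in sgHBG: of 20 tested cholesterol enzymes 0 rose and 19 fell, with a median log2 difference of -1.05. The same counts were found without the first sgGal4 library, with a median of -0.88. Over the whole list of 40, with uptake, regulation and fatty acid genes, 1 rose and 25 fell. For comparison, 12.1% of all genes tested were called higher and 12.6% lower in sgHBG than in sgGal4. With any 1 library left out, 19 to 32 of the 40 fell. Against WT 10 of the 40 were higher and 1 lower in sgHBG (over all genes, 17.7% higher and 15.9% lower). The cholesterol enzymes had a median difference of -0.05 against WT.

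MVK, mevalonate kinase, measured 39.3, 35.1 and 34.5 CPM in sgHBG, 136, 84.9 and 89.5 CPM in sgGal4, and 37.2 and 37.2 CPM in WT (2.84-fold lower than sgGal4, adjusted p = 4.57e-05). IDI1, which isomerises the isoprenoid unit, measured 163, 168 and 153 CPM, 394, 329.7 and 311 CPM, and 167 and 165 CPM (2.13-fold lower, adjusted p = 9.9e-06). For both genes all sgHBG values were below all sgGal4 values, and the WT values were close to sgHBG. Of the later steps, FDFT1, squalene synthase, fell from 1645, 1083 and 1050 CPM to 562.5, 550.0 and 545 CPM (2.28-fold, adjusted p = 0.000134). CYP51A1, the lanosterol demethylase, measured 132, 134 and 132 CPM against 396, 417 and 414 CPM (3.08-fold lower, adjusted p = 2.47e-07), and the first sgGal4 library stood at 0.955 times the other two. MSMO1, the sterol C4 methyl oxidase, measured 81, 86.7 and 82.5 CPM against 167, 164 and 158 CPM (1.95-fold lower, adjusted p = 7.04e-05). Each of these 5 calls held with any 1 library left out.

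Of 10 uptake and regulatory genes 1 rose and 3 fell. INSIG1, the sterol-dependent anchor of the SREBP complex, measured 406, 391 and 397 CPM in sgHBG and 608, 645 and 630.4 CPM in sgGal4 (1.58-fold lower, adjusted p = 6.88e-05). INSIG2, its close relative, measured 13.9, 11.9 and 12.7 CPM against 19.4, 18.4 and 19.5 CPM (1.49-fold lower, adjusted p = 0.0132). The INSIG2 call was lost without sgHBG library 2 or 3 (adjusted p up to 0.0618). In both genes the groups did not overlap. SREBF1, named after its values were seen as the member that rose, encodes one of the SREBP factors and measured 217, 203 and 215 CPM against 162, 150.2 and 159 CPM (1.35-fold, adjusted p = 0.0167). It was not called without sgHBG library 1 or 3, when 0 members rose, and 3 members rose without the second sgGal4 library. Of 10 fatty acid genes 0 rose and 3 fell, and 7 fell without the first sgGal4 library. ACSS2, which makes acetyl-CoA from acetate, fell 1.65-fold, from 235, 239 and 231 CPM to 146, 139.8 and 141 CPM (adjusted p = 8.16e-05). FASN, fatty acid synthase, measured 858, 885 and 934 CPM against 936, 1550 and 1581 CPM (1.52-fold lower, adjusted p = 0.0183), and this call was lost without sgHBG library 1 or 2 or sgGal4 library 2 or 3 (adjusted p up to 0.0685).

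The MVK and MSMO1 promoters (RefSeq, GRCh38.p14, chr12:109573544-109573843 and chr4:165327419-165327718, both plus strand) are shown for the motif that the cholesterol enzymes shared most. Capitals mark CCAAT or its reverse complement ATTGG, the letters of the NF-Y box. It was found in 13 of 15 cholesterol enzyme promoters (86.7%), against 43% of the promoters of all genes tested. The sterol element letters TCACNCCAC were found in 0 of the 15 and in 1.46% of the promoters of all genes tested.
MVK promoter: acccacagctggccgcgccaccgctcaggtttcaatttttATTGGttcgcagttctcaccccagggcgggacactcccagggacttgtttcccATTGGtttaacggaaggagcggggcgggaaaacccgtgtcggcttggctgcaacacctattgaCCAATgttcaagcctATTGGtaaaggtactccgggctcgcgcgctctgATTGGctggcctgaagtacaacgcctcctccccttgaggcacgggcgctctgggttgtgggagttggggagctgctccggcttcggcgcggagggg
MSMO1 promoter: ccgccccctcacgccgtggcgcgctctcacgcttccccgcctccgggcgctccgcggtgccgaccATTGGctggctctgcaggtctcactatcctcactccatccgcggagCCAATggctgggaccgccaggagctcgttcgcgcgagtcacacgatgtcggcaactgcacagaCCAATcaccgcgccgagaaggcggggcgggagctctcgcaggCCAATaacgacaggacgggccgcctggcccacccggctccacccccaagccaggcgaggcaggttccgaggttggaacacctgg

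Chaperones of the endoplasmic reticulum, through which secreted and membrane proteins fold, were also lower: 10 of 15 chaperones and folding enzymes fell and 0 rose. Of 11 genes of stress signalling or degradation 0 rose and 1 fell, and the stress sensors ERN1, ATF6 and EIF2AK3, named after their values were seen, were not called (adjusted p = 0.209, 0.694 and 0.641). HSPA5 (BiP), the central chaperone, measured 1061, 1031 and 1047 CPM in sgHBG, 2236, 1496 and 1504 CPM in sgGal4, and 2071 and 2013 CPM in WT (1.67-fold lower than sgGal4, adjusted p = 0.00278). CALR, the lectin chaperone calreticulin, measured 637, 616 and 607 CPM, 1198, 1074 and 1042 CPM, and 1006 and 1005 CPM (1.78-fold lower, adjusted p = 0.000189). The sgHBG libraries were below both other groups for the 2 genes. HERPUD1, which serves degradation of misfolded proteins, was 1.87-fold lower, and the disulfide isomerases PDIA6 and PDIA4 1.75- and 1.49-fold lower (adjusted p = 0.00256, 0.000773 and 0.00153). HSP90B1 (GRP94) measured 995, 992 and 947 CPM against 2477, 1421 and 1431 CPM, with the first sgGal4 library far above the other two (log2 -0.86 ± 0.18, adjusted p = 0.00419, and -0.54 without it, adjusted p = 0.000106). Without sgHBG library 1 or 2 the list of 26 had 7 lower members, against 11 with all libraries (42.3% called, against 24.7% over all genes). Of 39 genes of the integrated stress response 4 rose and 6 fell (25.6% called against 24.7% over all genes), and 2 fell without sgHBG library 2 or 3. Asparagine synthetase, ASNS, measured 508, 489 and 483 CPM against 1198, 815 and 786 CPM, and the alanyl-tRNA synthetase AARS 798, 787 and 803 CPM against 1777, 1350 and 1377 CPM (1.89-fold lower each, adjusted p = 0.00101 and 9.54e-05). The amino acid transporter gene SLC38A2 rose 1.96-fold, from 129, 223 and 223 CPM to 363, 387 and 376 CPM (adjusted p = 0.00204). With any 1 sgHBG library or the third sgGal4 library left out, 1 or 2 members of this list rose. Against WT, 0 of the 39 were higher and 26 lower (over all genes, 17.7% higher and 15.9% lower).

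**Figure D4:**
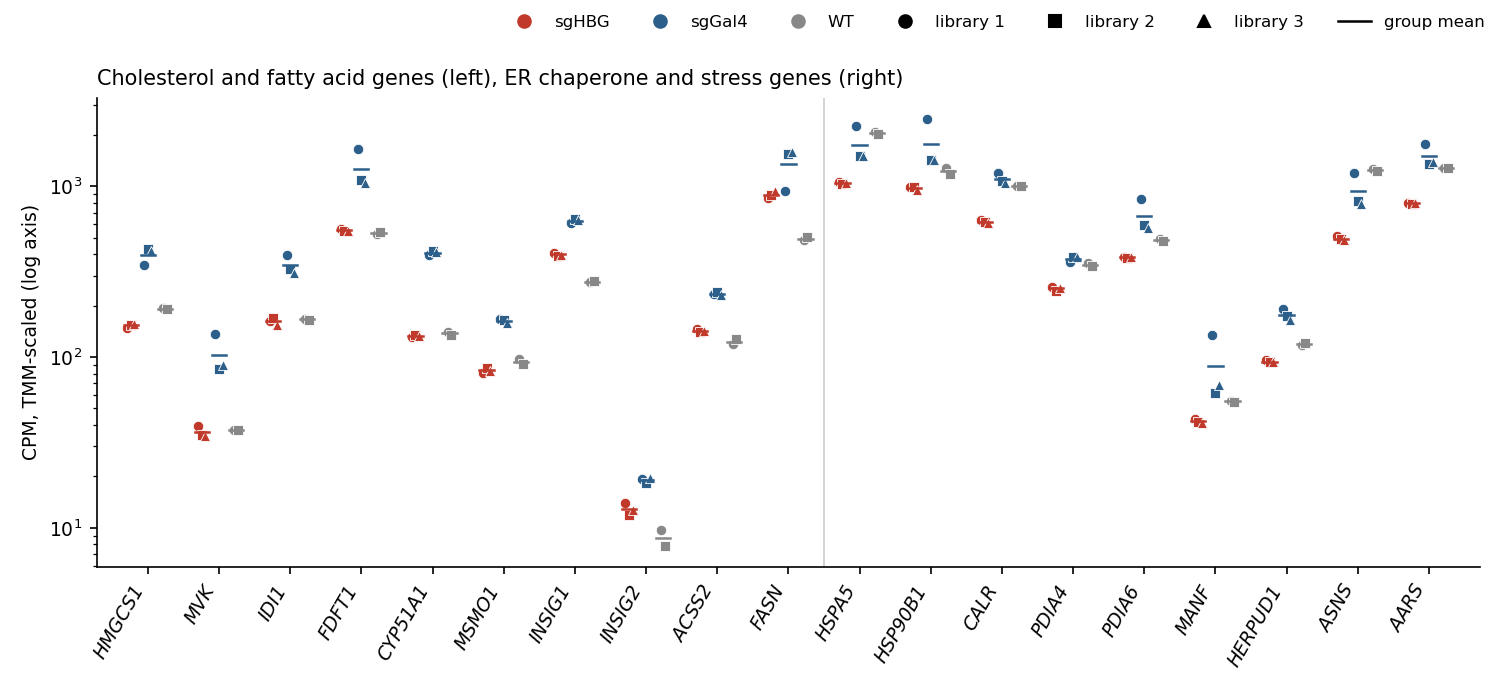
CPM (log axis) of cholesterol and fatty acid genes (left of the line) and endoplasmic reticulum and stress genes (right) in each sgHBG, sgGal4 and WT library, with group means as bars. The sgHBG points lie below the sgGal4 points for every gene shown, the WT points of MVK, IDI1, FDFT1 and CYP51A1 are close to sgHBG, and those of HSPA5, CALR, ASNS and AARS are closer to sgGal4.

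Genes of the translation machinery were lower in the 3 against 3 fit, but how many were called depended on which libraries entered. Of 77 cytosolic ribosomal protein genes 1 rose and 50 fell (66.2% called, against 24.7% over all genes), with a median log2 difference of -0.79. In 64 of the 77 every sgHBG library was below every sgGal4 library (22.9% over all genes). Without the first sgGal4 library 2 rose and 39 fell with a median of -0.32, and without sgHBG library 1, 2 or 3 the number that fell was 7, 5 and 5. For RPS18 the log2 difference was -0.90, with -1.09 to -0.42 when 1 library was left out, and it moved by over 1.5 times only without the first sgGal4 library. These are short genes, for which that sgGal4 library was high: RPS18 measured 5731, 5347 and 5405 CPM in sgHBG against 16058, 7314 and 7367 CPM in sgGal4, and RPL13 2209, 2161 and 2191 CPM against 8325, 2982 and 2908 CPM. RPL27, a subunit protein whose call held with each library left out, measured 1044, 1006 and 1019 CPM against 2250, 1453 and 1485 CPM (1.69-fold lower, adjusted p = 0.00408). In all 3 genes every sgHBG library was below every sgGal4 library. RPL36A was the member that rose, at 6.2, 5.98 and 6.19 CPM against 2.13, 2.23 and 2.66 CPM (adjusted p = 0.00131), but in the deposited RPKM values it stood at 1275, 1273 and 1276 against 3474, 1256 and 1307 RPKM, so the 2 tables differ for this gene, which is uncertain. The higher sgGal4 mean in RPKM came from its first library, and the other two stood close to the sgHBG level. Of 26 translation factors 0 rose and 10 fell (38.5% called, against 24.7% over all genes). The number that fell was 16 without the third sgGal4 library, and 6, 5 and 5 without sgHBG library 1, 2 and 3. EEF1A1, the elongation factor that delivers aminoacyl-tRNA, measured 30610, 29573 and 29252 CPM against 65343, 39723 and 39927 CPM (log2 -0.70 ± 0.17, adjusted p = 0.0102, and -0.42 without the first sgGal4 library, adjusted p = 9.85e-05). Its paralogue of nerve and muscle, EEF1A2, fell 2.57-fold, from 423, 289 and 275 CPM to 125, 129.9 and 129 CPM (adjusted p = 0.00029). Against WT, 3 ribosomal protein genes were higher and 0 lower (over all genes, 17.7% higher and 15.9% lower).

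Of 31 DNA replication genes 3 rose and 5 fell (8 fell without the third sgGal4 library, and 2 without any 1 sgHBG library), and of 25 mitotic genes 1 rose and 6 fell (0 rose and 2 fell without sgHBG library 2 or 3). These shares, 25.8% and 28.0%, were close to the 24.7% called over all genes. MCM7, a subunit of the replicative helicase, measured 406, 395 and 405 CPM in sgHBG and 716, 582 and 576 CPM in sgGal4 (1.55-fold lower, adjusted p = 0.00152). ORC6, of the origin recognition complex, was 1.86-fold lower, and CDC20, the activator of the anaphase-promoting complex, 1.55-fold lower, at 118, 119 and 119 CPM against 192, 185 and 177 CPM (adjusted p = 0.000119 and 0.000541). POLA1, the catalytic subunit of DNA polymerase alpha, went the other way, 1.62-fold higher (adjusted p = 0.00346). Glycolysis and hypoxia genes held 9 higher and 5 lower of 36 (38.9% called, against 24.7% over all genes), with 5 higher without any 1 sgHBG library. VEGFA, the angiogenic growth factor, measured 274, 270.2 and 267 CPM against 139, 154 and 156 CPM (1.81-fold, adjusted p = 0.000112), and PKM, pyruvate kinase, was 1.41-fold higher (adjusted p = 0.0069). P4HA1, a collagen prolyl hydroxylase, was 1.74-fold lower, at 138, 133 and 124 CPM against 241, 229.6 and 219 CPM (adjusted p = 9.82e-05), and the aldolase ALDOC 1.71-fold lower (adjusted p = 0.00153). Thus members of the same list moved in both directions without overlap.

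Immediate early genes, the first transcripts after growth factor signalling, held 6 higher and 2 lower of 31, a share (25.8%) close to that of all genes (24.7%). EGR1, a zinc finger factor of this response, measured 129, 126 and 136 CPM in sgHBG, 42.6, 62.2 and 62.9 CPM in sgGal4, and 16.7 and 16.7 CPM in WT (2.32-fold against sgGal4, adjusted p = 0.000166). MCL1, an inhibitor of apoptosis, was 1.55-fold higher (adjusted p = 0.000344). The number lower was 4 without the third sgGal4 library, 1 without the first, and 0, 0 and 1 without sgHBG library 1, 2 and 3. Of 21 genes of the BCR-ABL and STAT5 pathway 2 rose and 1 fell (14.3% called), and SOCS3, a feedback inhibitor of cytokine receptors, was 1.97-fold higher, at 28.8, 28.8 and 25.4 CPM against 10.1, 16 and 15.8 CPM (adjusted p = 0.000929). Without the first sgGal4 library this list had 4 higher and 5 lower, and without any 1 sgHBG library 1 higher and 0 lower. Of 21 p53 targets 3 rose and 2 fell (23.8% called), and 4 fell without the first sgGal4 library and 1 without any 1 sgHBG library. FAS, the death receptor, measured 4, 3.21 and 2.7 CPM against 0.426, 1.26 and 1.1 CPM (3.38-fold, adjusted p = 0.00284). Of 10 biotin-dependent or biotin-handling genes, relevant to the biotin ligase that both groups carry, 1 rose and 3 fell: the carboxylase ACACB was 2.51-fold higher and PCCB 1.47-fold lower (adjusted p = 0.00164 and 0.00361). Without the second sgGal4 library 2 of these rose, and without sgHBG library 2 only 1 fell. Of 20 heat shock genes 1 rose and 1 fell (10.0% called). HSPA6, an inducible chaperone, was the one that rose, 2.11-fold (adjusted p = 0.00202), and without the first sgGal4 library 4 rose, while 5 fell without the third and 0 without sgHBG library 1 or 2. Of 20 replication-dependent histone genes, most of whose transcripts lack a poly(A) tail, 5 rose and 1 fell (30.0% called). Without sgHBG library 1, 2 and 3 the number that rose was 2, 3 and 2 and 0 fell.

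Matrix and adhesion genes included some of the largest losses. Of 9 collagens listed apart from the fibroblast markers 1 rose and 5 fell (66.7% called, against 24.7% over all genes). With any 1 library left out 5 fell, while 2 rose without the first sgGal4 library and 0 without sgHBG library 3. COL11A1, a fibril-forming collagen, measured 0.4, 0.268 and 0.262 CPM in sgHBG, 8.79, 12 and 12.8 CPM in sgGal4, and 0 in both WT libraries (35.1-fold lower than sgGal4, adjusted p = 1.86e-06). COL23A1, a transmembrane collagen, measured 2, 2.41 and 2.62 CPM against 43.5, 28.7 and 27.7 CPM (14.1-fold lower, adjusted p = 0.000581). ALCAM, a cell adhesion molecule, measured 2.4, 3.12 and 2.7 CPM against 30.2, 44.8 and 43.6 CPM (14.4-fold lower, adjusted p = 0.00139). For the 3 genes WT was at or below the sgHBG level, so that the sgGal4 libraries were the high ones. Among 25 integrin and adhesion genes 5 rose and 4 fell (36.0% called, against 24.7% over all genes), and 2 or 3 rose without sgHBG library 1 or 2. Of 17 fibroblast and endothelial genes 4 rose and 4 fell (47.1% called, against 24.7% over all genes). FN1, fibronectin, measured 14.8, 16.9 and 13.8 CPM against 0.851, 1.65 and 1.47 CPM (11-fold, adjusted p = 0.00386) and 305 and 307 CPM in WT, and COL6A3 369.9, 362 and 379 CPM against 88.8, 176 and 191 CPM (2.43-fold, adjusted p = 0.00204), while COL6A1 and COL1A1 fell 3.01- and 2.49-fold (adjusted p = 0.000183 and 0.000229). Without sgHBG library 1 this list had 2 higher members. Its 8 defining fibroblast markers summed to 11.21 to 13.56 CPM in sgHBG and 19.63 to 21.29 CPM in sgGal4, with LUM at 0 reads. Of 8 epithelial genes 0 rose and 3 fell (37.5% called, against 24.7% over all genes), 1 of them without sgHBG library 2. EPCAM measured 48.7, 48 and 46.1 CPM against 145, 81.5 and 75.2 CPM (2.11-fold lower, adjusted p = 0.00381). The HOX genes had 3 higher and 2 lower of 16 (31.2% called, against 24.7% over all genes), with 0 to 1 lower with any 1 library left out. Without the first sgGal4 library 5 were higher, and without sgGal4 library 2 or 3, or sgHBG library 3, 1 was. HOXB3 rose 1.75-fold (adjusted p = 0.00319).

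Cancer-testis antigens are genes of the germ line that tumours often transcribe, many on the X chromosome. They held 9 higher and 0 lower of 17 tested (52.9% called, against 24.7% over all genes), and 8 to 11 higher with any 1 library left out. Their median log2 difference was 0.77, and 1.10 without the first sgGal4 library. MAGEA1 measured 23.9, 27 and 25 CPM in sgHBG, 2.69, 2.42 and 2.02 CPM in sgGal4, and 43.6 and 44.9 CPM in WT (10.7-fold against sgGal4, adjusted p = 4.22e-07). MAGEB2 measured 82.7, 79.8 and 77.3 CPM, 28.1, 23.4 and 22.1 CPM, and 75.3 and 73.2 CPM (3.27-fold, adjusted p = 2.34e-05). Here sgGal4 was the low group, while sgHBG and WT were both high. MAGEA4 and MAGEC2 were 3.97- and 1.98-fold higher (adjusted p = 0.000237 and 0.00032). MAGEA8 had 90 reads in sgHBG and 0 in sgGal4, at least 26-fold higher by a floor of 3 reads over the group, and measured 6.74 and 7.38 CPM in WT. Reads of the MAGEA genes may be shared between close copies. Against WT, 2 of the 17 genes were higher and 6 lower in sgHBG (over all genes, 17.7% higher and 15.9% lower).

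Some genes were nearly on or off between the 2 groups. Among those highest in sgHBG, LIMCH1, an actomyosin regulator, KRT86, a hair keratin with close copies, and NAA11, an N-terminal acetyltransferase, had 97, 91 and 87 reads there and 0 in sgGal4, at least 28-, 26.3- and 25.1-fold higher by the same floor (adjusted p = 7.12e-05, 0.000409 and 5.87e-06). LIMCH1 and KRT86 had 1 read or fewer in WT, while NAA11 stood at 23.4 and 22.3 CPM there, above sgHBG. MS4A4A, a tetraspan protein of macrophages and mast cells, measured 16.8, 13.1 and 14.3 CPM in sgHBG against 0.426, 0.0968 and 0.367 CPM (49.6-fold, adjusted p = 4.06e-07), and SASH3, a lymphocyte adaptor, 12.6, 12.2 and 10.8 CPM against 0.426, 0.0968 and 0.0917 CPM (62-fold, adjusted p = 0.00117). The antisense transcript CHRM3-AS2 had 166 reads against 1, but the library kit does not mark strand, so its reads cannot be told from those of genes on the other strand. XIST and TSIX met the same rule and are named without values.

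Among the genes lowest in sgHBG, EPB41L3, a membrane skeleton protein, and PDGFC, a growth factor, had 0 reads there against 191 and 111 in sgGal4, at least 73.5- and 42.7-fold lower (adjusted p = 0.00919 and 0.000174). Both also had 0 reads in WT. ACSS1, the mitochondrial acetyl-CoA synthetase, and ROBO1, an axon guidance receptor, had 3 reads each against 228 and 218, depth-scaled ratios of 87.8 (29.7 to 429) and 83.9 (28.3 to 410) with exact 95% intervals. TMEM176A and TMEM176B, neighbouring genes for ion channel proteins of myeloid cells, measured 0.7, 0.0892 and 0.349 CPM against 22.8, 12.3 and 12 CPM, and 0.2, 0.535 and 0.349 CPM against 17.9, 12.1 and 12.9 CPM (40.8- and 37.6-fold lower, adjusted p = 2.4e-05 and 9.36e-06). CKAP4, an anchor of the endoplasmic reticulum to microtubules, measured 1, 0.714 and 0.959 CPM against 37, 22.6 and 24.1 CPM (30.9-fold lower, adjusted p = 9.36e-06). WT had 0 reads of the TMEM176 genes and 0.577 and 0.82 CPM of CKAP4, so for these genes too the sgGal4 group was the one apart.

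By absolute level, the largest gains were in GAPDH, FLNA, MSN, MALAT1 and ATP2A3. FLNA, the actin crosslinker filamin A, measured 713, 729.6 and 737 CPM in sgHBG and 224, 464 and 474 CPM in sgGal4 (1.88-fold, adjusted p = 0.00836), with the first sgGal4 library at 0.478 times the other two for this long gene. ATP2A3, a calcium pump of blood cells, measured 627, 639.9 and 646 CPM against 295, 373 and 358 CPM (1.86-fold, adjusted p = 6.27e-05), and the nuclear RNA MALAT1 612, 638 and 654 CPM against 321, 329 and 346 CPM (1.91-fold, adjusted p = 0.00386). Both were above sgGal4 in every library, which the rule that named them required. Their calls held with each library left out, which the rule required for the first sgGal4 library. GAPDH, the glycolytic enzyme, measured 2294, 2247 and 2201 CPM against 1846, 1536 and 1557 CPM (1.36-fold, adjusted p = 0.0178). The calls of GAPDH and the membrane linker MSN were lost without any 1 sgHBG library (adjusted p up to 0.0596 and 0.0637). The largest losses in CPM were those of EEF1A1, RPS18 and other genes of the translation machinery given above.

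**Figure D5:**
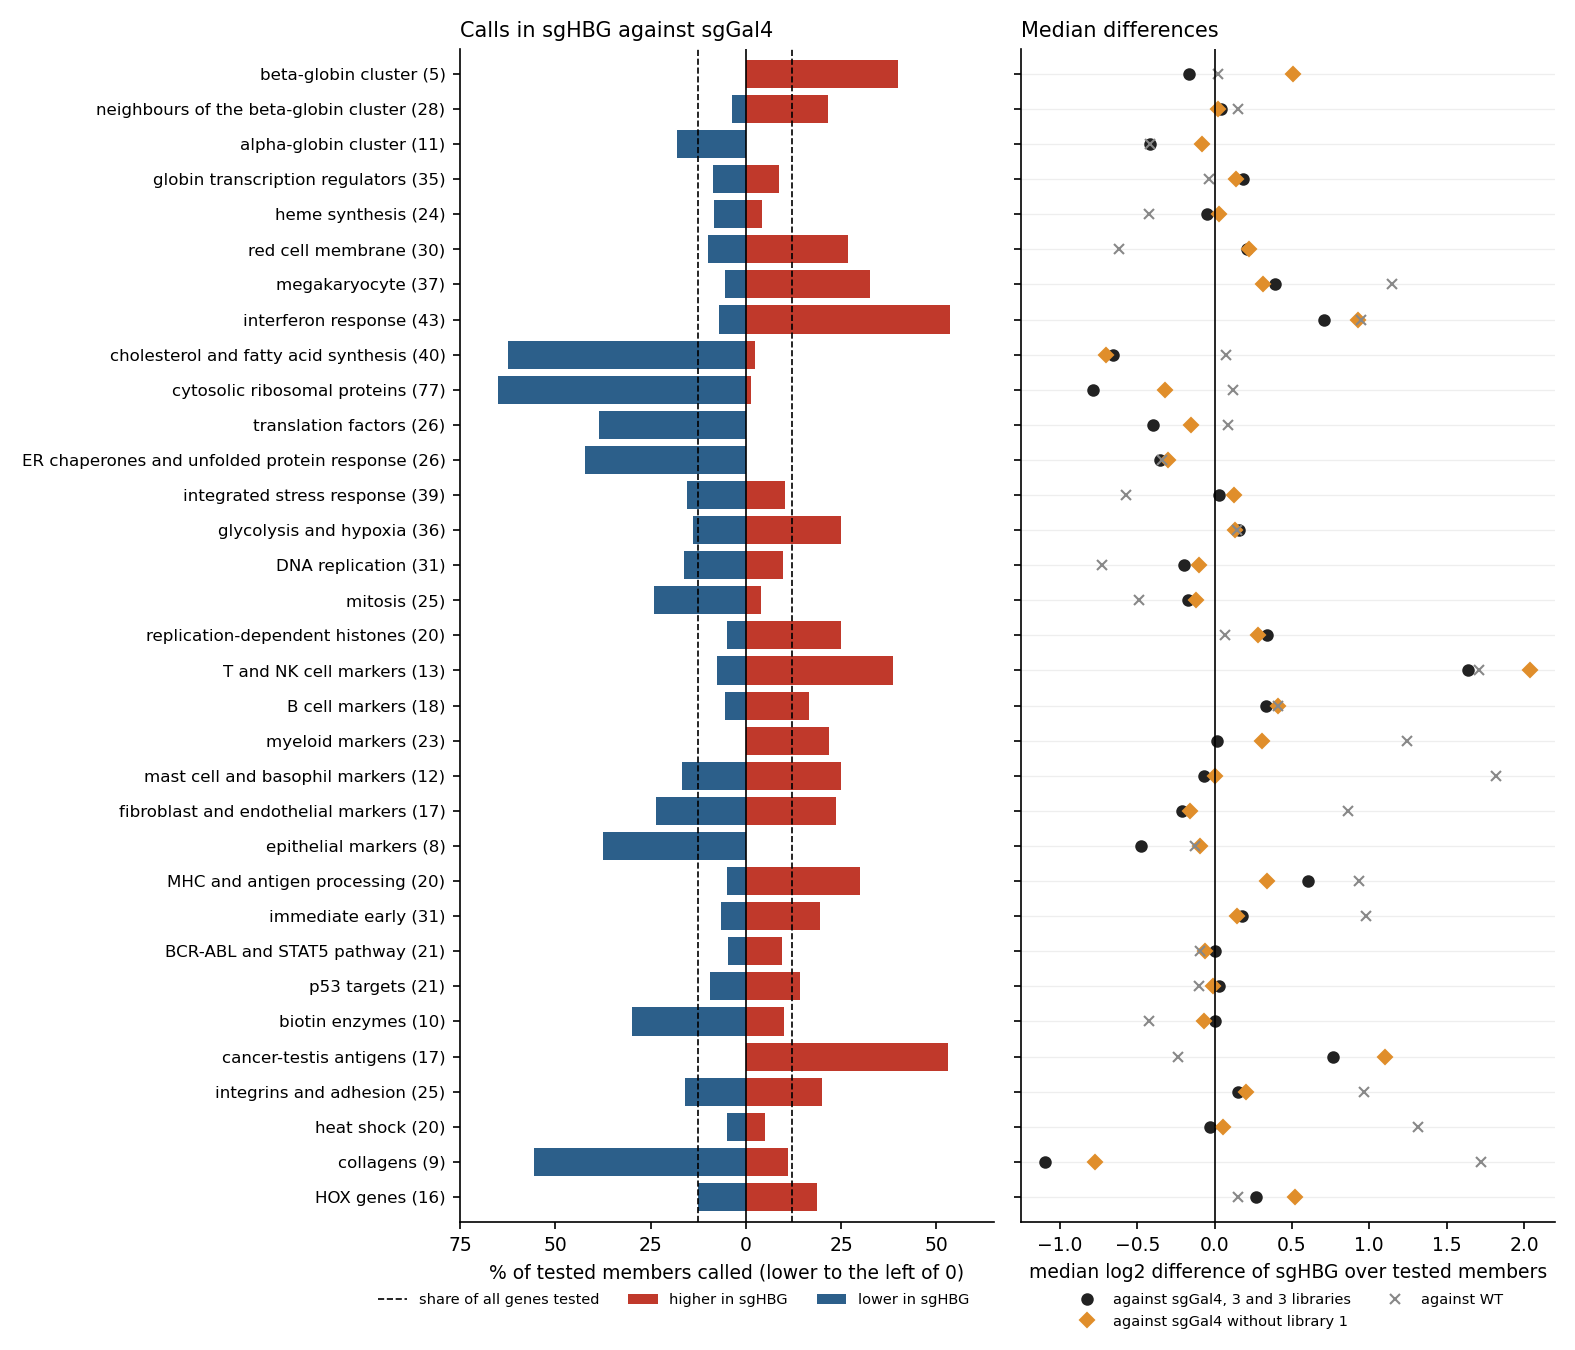
The left panel shows, for each gene list, the percentage of its tested members (number in parentheses) called higher (right of 0) and lower (left of 0) in sgHBG against sgGal4, with dashed lines at the shares over all genes, 12.1% and 12.6%. The right panel shows the median log2 difference of each list against sgGal4 with all libraries (circles), without the first sgGal4 library (diamonds) and against WT (crosses): interferon and cancer-testis genes lie furthest above the dashed line for higher, and ribosomal protein, cholesterol and fatty acid, and collagen genes furthest beyond that for lower.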

How the data were processed

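The authors deposited raw read counts (24729 genes, not normalized) and RPKM values (25268 genes, scaled to transcript length and library depth). TopHat, Cufflinks, DESeq and the human build hg19 are named without versions or roles per the submitters' processing notes. The counting tool and annotation are not given in the sources used here. Libraries were made with Illumina's TruSeq RNA kit, per the labels' protocols, which do not mention strand; as background, that kit selects poly(A) RNA and does not mark strand. Groups were taken from the labels.

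Counts were tested with edgeR 4.0.16 in R 4.3.3. filterByExpr (minimum count 10, minimum total count 15) kept 14406 genes, TMM factors scaled the 14 libraries, and a group-mean fit of all 14 (9 residual degrees of freedom, common dispersion 0.0323) gave the quasi-likelihood test, with p adjusted by the Benjamini-Hochberg method over all genes tested and a threshold of 0.05. The SE is the log2 difference over the square root of F. On simulated counts for 14032 genes the sgHBG against sgGal4 test recovered 63% of 2-fold and 16% of 1.5-fold changes, with 2.47% false calls. Those counts were drawn independently per gene, with no library shifted by gene length as the first sgGal4 library was. The rate of false calls in the measured comparison is therefore not known from them. Alternatives used DESeq2 1.42.0 and limma 3.58.1. Intervals and the floor of 3 reads cover counting error only.

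Named genes were, among genes called with and without the first sgGal4 library, at 1 CPM or more and not overlapping, the 12 highest and 12 lowest log2 differences and the 6 largest gains and losses of CPM, then the β-globin genes and, from every further list, the 5 or fewer members with the lowest p and 2 more of each role. The comparison, its members and the lists were chosen with earlier results of these data known. Whether replicate numbers pair libraries across groups is not given by the labels, and the main fit used no pairing. Values of a few members of the lists are not reported here.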

Additional observations from a re-analysis of the deposited data

Results flagged for a closer look

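The RPKM table listed 539 genes that the count table did not hold. Of these, 434 were tested with limma-trend on log2(RPKM + 1) over the 14 libraries, and 50 (11.5%) passed an adjusted p of 0.05 over these genes, 29 higher and 21 lower in sgHBG than in sgGal4. They were noted as a signal outside the count table. IFLTD1, a lamin tail domain gene, stood at 4.45, 3.53 and 4.45 RPKM in sgHBG and 0.594, 0.681 and 0.586 RPKM in sgGal4 (1.66 ± 0.15 on the log2(RPKM + 1) scale, limma adjusted p = 0.000115). LPHN3, an adhesion receptor, stood at 0.00841, 0.0377 and 0.0758 RPKM against 1.04, 2.63 and 2.71 RPKM (-1.53 ± 0.19, limma adjusted p = 0.000991). LEPREL4, a gene of the prolyl hydroxylase family in collagen synthesis, stood at 4.41, 4.91 and 4.52 RPKM against 14.7, 10.7 and 9.65 RPKM (-1.15 ± 0.16, limma adjusted p = 0.00116). In all 3 genes the sgHBG and sgGal4 libraries did not overlap.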

How the results depend on the processing

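The number of genes called lay between 2064 and 4068 with 1 library left out (higher 1126 to 2037, lower 938 to 2222, at least 2-fold 1007 to 1536). A fit of the 6 libraries alone gave 2099 calls, 889 of them lower. Leaving out 4 libraries, sgGal4 1, sgHS2 2 and sgHS1-5 2 and 3, gave 7959 calls, 3984 higher and 3975 lower. RPKM fits with limma-trend and a pseudocount of 1 gave 519 genes changed at least 2-fold, or 514 without a filter, and with a pseudocount of 0.1 they gave 968, against 1321 in the counts, so the number at least 2-fold depended on the pseudocount. The cause of the other shifts was not tested.

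For HBD the log2 difference was 0.47 to 0.89 with 1 library left out, and not called without a count filter (0.66), in the 6 libraries alone (0.66), with the replicate number as a block (0.65) or on the RPKM scale with a pseudocount of 1 (0.29, with and without a filter) or 0.1 (0.33). HBG2 turned to 0.51 without the first sgGal4 library (its range with 1 library left out was -0.42 to 0.51), and without the 4 libraries HBE1 (0.19), HBG1 (0.39) and HBG2 (0.51) turned upward. RPL36A turned to -0.49 in the RPKM fits, by its first sgGal4 value.

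The fit with the replicate number as a block gave 3055 calls. Same-numbered sgHBG and sgGal4 libraries deviated from their group means together with r = 0.06, 0.01 and 0.03 across genes. The first sgGal4 library dominates the deviations in its group, so these values cannot tell whether same-numbered libraries were paired. The labels give no pairing beyond the number, and the block is no check of an effect. At this depth, 3 reads in a library are 0.265 to 0.316 CPM, and levels below that were not resolved.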
